A study of Homo sapiens with 6 samples.

Results

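Of the 48114 gene rows of an RNA sequencing table, 21387 lay off the mitochondrial genome and carried no gene symbol, and 2535 of these had a mean of at least 100 normalized counts over the 6 libraries. These 2535 expressed unnamed loci, chosen by that mean, are described here. The RNA came from TC-71 cells, an established human line of Ewing sarcoma, a tumour of bone and soft tissue driven in most cases by an EWSR1 fusion gene. Cells labelled WT were kept for 16 h with BEZ235, which inhibits the lipid kinase PI3K and the growth kinase mTOR, or with dimethyl sulfoxide (DMSO), its solvent, and each group held 3 libraries from biological replicates per the labels' protocols. All libraries came from 1 cell line, so p-values measure the spread between its cultures. The mean that chose the loci was taken over both groups, so their level is not a finding. The difference between the groups was not itself a criterion. A locus with a mean under 100 in 1 group, however, could enter only by a higher mean in the other. Rows are genes of FASTDB, an annotation of genes and exons, each given by its identifier and hg38 position, with no strand.

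Transcribed stretches without a symbol are of several known kinds. Antisense and intergenic RNAs run beside or across named genes, and many come from the same promoter region in the other direction. Processed pseudogenes are copies of a mature mRNA that were written back into the genome, so a short read from the parent gene can match them as well. Rows that lie in an intron can collect reads from RNA that is not yet spliced, and very short rows can be pieces of an exon. PI3K and mTOR signalling raises ribosome production and protein synthesis and also raises the activity of ATF4, which switches on genes for amino acid synthesis and uptake.

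The sequences below belong to the loci on which the results turn. The promoter windows of the loci GSHG0047756 (chr1:17439884-17441534) and GSHG0001051 (chr1:148279268-148291860) are shown because both loci were among the 8 largest falls and both windows hold the motif TGATGCAAT, a form of the composite element that ATF4 dimers can bind. RefSeq gives these windows as chr1:17441494-17441793 on the minus strand and chr1:148279018-148279317 on the plus strand (GRCh38.p14), 250 bases before to 50 bases after the start of LOC124903862 and LINC02806. Capitals mark TGATGCAAT or its reverse complement ATTGCATCA.
LOC124903862: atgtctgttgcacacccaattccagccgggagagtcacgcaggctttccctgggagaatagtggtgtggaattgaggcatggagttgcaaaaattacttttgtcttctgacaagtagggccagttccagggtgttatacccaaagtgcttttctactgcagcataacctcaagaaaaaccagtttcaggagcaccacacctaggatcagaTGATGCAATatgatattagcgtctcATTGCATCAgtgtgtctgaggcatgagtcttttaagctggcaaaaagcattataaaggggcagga
LINC02806: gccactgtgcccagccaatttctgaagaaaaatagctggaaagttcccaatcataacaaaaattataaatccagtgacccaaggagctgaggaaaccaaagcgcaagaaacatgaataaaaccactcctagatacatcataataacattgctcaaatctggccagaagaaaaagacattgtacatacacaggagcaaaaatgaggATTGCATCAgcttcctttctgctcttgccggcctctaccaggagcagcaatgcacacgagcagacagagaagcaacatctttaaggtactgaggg
The copies in the first window began 40 and 15 bases before the start, and the copy in the second began 45 bases before it. The search was made after the values were seen, on both strands of the 300-base windows of 35116 RefSeq promoters, 141 of which belonged to the loci. TGATGCAAT was found in 83 of the 35116 promoters (0.236%) and in 2 of the 141 (1.42%), the ones shown. LOC124903862 was the 1 promoter of all 35116 with more than 1 copy. The wider motif TGATGNAAT, which includes it, was found in 348 promoters (0.991%) and in the same 2 of the 141. For both motifs the share among the 141 rests on the same 2 promoters, and its difference from all promoters was not tested. A match describes the letters of the window and was not tested as a binding site. The part of ATF4 in these falls was not tested either.

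Very short loci are shown because their letters also occur in other genes. Of the 402 loci of up to 50 bases, 310 lay within 1 exon of a GENCODE v29 transcript, and 59 of those had an exact copy in the transcripts of more than 1 gene. Of the highest 6 of the 59 by mean level, 5 are given 5′ to 3′ on the strand of the transcript.
GSHG0045581: actctgaagggacgcacagttatcgtgaa
GSHG0049187: tttgagggtgatgatggattctgtgt
GSHG0043304: gaccgtaaccattatagacgctatcca
GSHG0049213: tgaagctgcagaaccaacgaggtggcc
GSHG0049140: tgcgagtactcaacaccaacatcgatg
The first, chr15:82372806-82372834 in the pseudogene RPL9P9, occurs in 4 genes, RPL9, RPL9P7, RPL9P9 and AC093698.1. Its transcript runs on the minus strand, as do those of the loci at chr7:133035715-133035740 and chr17:14705471-14705497, while those of chr1:42696708-42696734 and chr1:228687487-228687513 run on the plus strand. The second to the fifth sequence occur in transcripts of EEF1G, YBX1, FTH1 and RPS18, each with at least 1 copy in a gene of another name.

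Pseudogene transcripts of whole loci are shown for RPS28P7 (GSHG0025481, chr11:82689547-82689904) and TMSB4XP6 (GSHG0027481, chr20:50840592-50840775). RPS28P7 is among the 8 loci with the highest level and TMSB4XP6 had the largest fall of those processed pseudogenes. The transcripts lie at chr11:82689559-82689768 (plus strand) and chr20:50840615-50840749 (minus strand), from GENCODE v29. Capitals mark bases that are in no 30-base word shared with a transcript of the parent gene, RPS28 or TMSB4X.
RPS28P7: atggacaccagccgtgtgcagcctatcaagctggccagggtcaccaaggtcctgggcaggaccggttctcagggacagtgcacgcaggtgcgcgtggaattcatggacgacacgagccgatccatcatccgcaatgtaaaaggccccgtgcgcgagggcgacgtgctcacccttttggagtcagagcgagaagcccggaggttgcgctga
TMSB4XP6: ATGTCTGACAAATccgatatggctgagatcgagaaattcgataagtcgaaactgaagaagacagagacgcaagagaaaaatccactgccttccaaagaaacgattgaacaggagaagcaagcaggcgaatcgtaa
Every one of the 210 bases of RPS28P7 lay in a shared word, and of the 135 bases of TMSB4XP6 only the 13 at the 5′ end did not.

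The recovered reads per library ran from 184790722 to 233767211, and the unnamed loci took 2.83% to 3.34% of the normalized counts, or 2.16% to 2.64% without the highest locus. Ewing sarcoma markers fixed for the check were high, with a sum over 9 genes of 433310 to 451171 normalized counts with BEZ235 and 491625 to 539239 with DMSO, and CD3E, HBB and KRT5 were at 0 in every library. Within the Ewing sarcoma sum, CD99, NR0B1 and CCND1 fell (log2 fold change -0.34, -1.11 and -0.37). NKX2-2, KDSR, STEAP1 and EWSR1 rose (1.26, 0.59, 0.39 and 0.14), and FLI1 and PRKCB did not pass the test. The sum of the 4 fibroblast markers was 5792 to 6292 with BEZ235 and 9319 to 10581 with DMSO, that of the 5 epithelial markers 1099 to 1325 and 1698 to 1743, that of the 4 blood markers 0.99 to 3.62 and 10.8 to 16.5, and that of the 3 endothelial markers 8.11 to 13.8 and 0.83 to 18.4. The fibroblast and epithelial sums followed COL1A1 and LUM (log2 fold change -0.73 and -2.65) and KRT8 (-0.99), whereas DCN and EPCAM rose by 0.25 and 1.06. The part of these marker levels in the results below was not tested. In bulk RNA, fewer cells of a type and less RNA per cell cannot be told apart.

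Expressed unnamed loci changed in both directions with BEZ235. Of 2535, all of which were tested, 807 were higher and 888 lower at an adjusted p under 0.05 (limma on log2(normalized count + 1), Benjamini-Hochberg over all 23923 rows tested), and the median log2 fold change was -0.06. The background over all rows tested was 66.3% called, 33.1% higher and 33.2% lower, against 66.9% of the unnamed loci, so the share is near the background. At least 2-fold changes were called for 327 loci upward and 355 downward, where the background was 12.7% and 13.6%. Groups did not overlap for 1794 loci (70.8%, background 70.9%). Loci with a low mean in 1 group had to differ to reach the mean of 100: 195 had a DMSO mean under 100 and 234 a BEZ235 mean under 100, and among the 2106 with both means of at least 100, 633 were higher and 692 lower (62.9% called). Named rows with a mean of at least 100 were called more often, 76.9% of 15121, but their median level was 2746 normalized counts against 317. At matched levels the shares were closer: 60.6% of unnamed and 63.3% of named rows between 100 and 200, 68.2% and 75.9% between 500 and 1000, and 79.5% and 78.7% between 1000 and 5000.

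The largest fall was in GSHG0047756, which ends 159 bases from RCC2, a chromatin regulator of mitosis, and matches LOC124903862, a noncoding gene. Its normalized counts were 382, 481 and 428 in the DMSO libraries and 2.32, 0.99 and 0.91 in the BEZ235 libraries. Over the groups 1333 reads stood against 4, a ratio of 321 with a 95% exact counting interval of 125 to 1181, and the fitted log2 fold change was -7.53 ± 0.38 (SE, adjusted p = 3.02e-08). The neighbouring RCC2 row fell by 0.48 on the log2 scale.
A second locus that almost disappeared was GSHG0020408, chr18:58535415-58538552, an antisense transcript inside ALPK2, which encodes a kinase. It was at 253, 273 and 218 with DMSO and at 0, 2.96 and 0 with BEZ235, that is 759 reads against 3 and a ratio of 244 (95% counting interval 83.1 to 1185). The ALPK2 row fell from 504 ± 20.7 to 1.97 ± 3.42 (SD, n = 3), and the table has no strand, so reads of the 2 rows cannot be told apart. GSHG0001051, which matches LINC02806 and lies inside the very long NUDT4B row, was at 564, 669 and 621 with DMSO and 15.1, 14.8 and 11.8 with BEZ235 (log2 fold change -5.38, adjusted p = 5.31e-09). GSHG0048744, chr19:27638442-27640638, overlaps exons of ERVK-28, a transcript with an endogenous retrovirus name, 149855 bases from the nearest named row. Its values were 645, 468 and 679 with DMSO and 31.3, 23.7 and 35.3 with BEZ235 (-4.27, adjusted p = 3.66e-08). The highest BEZ235 library of these 4 loci, at 35.3, belonged to GSHG0048744.
The other 4 of the 8 largest falls lay inside BEST1 (a chloride channel of the retinal pigment epithelium), UBE3C (a ubiquitin ligase), PPP3CA (the catalytic subunit of calcineurin) and TENM2 (a neuronal adhesion protein), with log2 fold changes of -4.24, -4.18, -3.96 and -3.91. BEST1 itself fell by 5.28, while the TENM2 row, at -0.07, did not pass the test.

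Among the rises, GSHG0035313, chr5:37077632-37079942, 11218 bases from NIPBL (the cohesin loader) and with no GENCODE gene, stood highest by fold. It was at 3.24, 21.7 and 2.5 with DMSO and at 340.5, 340.6 and 264 with BEZ235, a log2 fold change of 5.49 ± 0.60 (SE, adjusted p = 1.16e-05). The NIPBL row changed by 0.12 and did not pass the test. GSHG0024882, chr2:232346268-232348540, 1917 bases from DIS3L2 (an exonuclease that degrades uridylated RNA), had 3.24, 9.3 and 7.51 with DMSO and 261, 207 and 226 with BEZ235, a log2 fold change of 5.01 ± 0.39 (SE, adjusted p = 7.74e-07), while DIS3L2 rose by 0.41. GSHG0006202, chr11:57638376-57652790, matches MIR130AHG, the host gene of the microRNA miR-130a. Its level rose from 46.5, 100.2 and 65.9 to 839, 805 and 871 (3.61, adjusted p = 1.86e-07). GSHG0028921 inside RAB36, a small GTPase, rose by 3.56 and its named row by 3.90. The remaining 4 of the 8 largest rises, GSHG0043052, GSHG0011401, GSHG0039903 near LINC01000 and GSHG0005492 in HSPA12A, had log2 fold changes of 3.39 to 3.62. HSPA12A itself, a member of the heat shock protein 70 family, fell by 1.48. The 8 rises and 8 falls were picked as the largest with no overlap between the groups, so their separation is part of the choice. Each also had a mean under 100 in 1 group and reached the limit of 100 through the other.

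**Figure D1:**
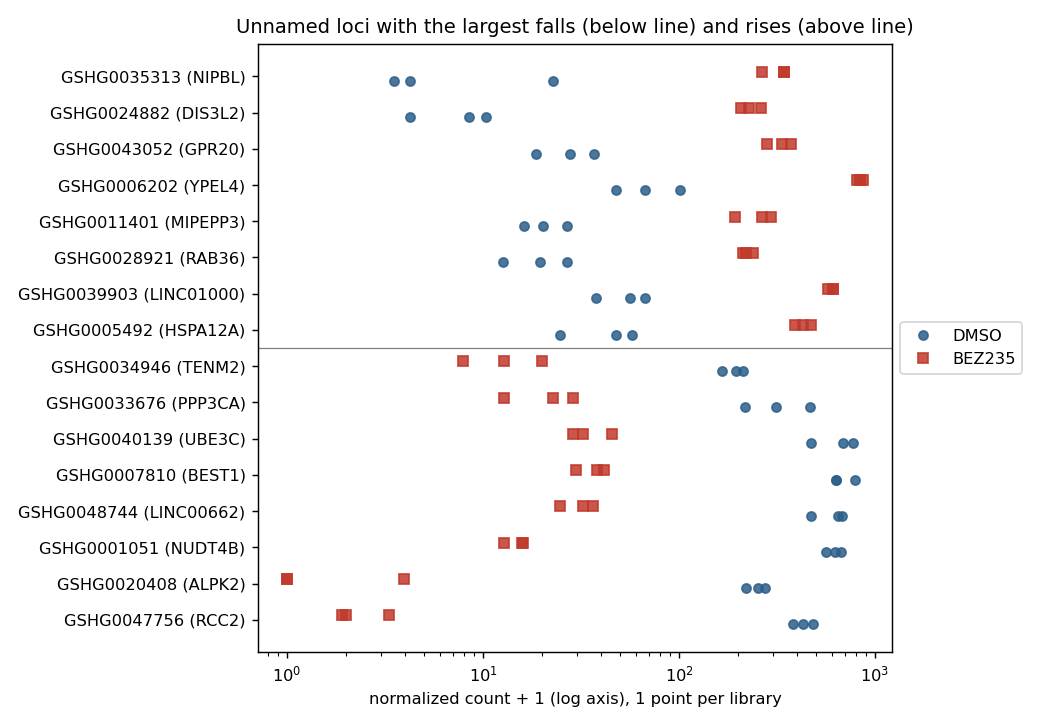
Normalized count plus 1 (log axis) of the 8 unnamed loci with the largest falls, below the line, and the 8 with the largest rises, above it; each point is 1 library, circles DMSO and squares BEZ235, and the nearest named row is in brackets. GSHG0047756 has the widest gap, from 382 to 481 with DMSO to 0.91 to 2.32 with BEZ235; all 16 were picked for groups that do not overlap.

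Loci that overlap no named row held more of the larger rises, apart from those beyond 50 kb. At least 2-fold rises were called for 105 of the 535 loci that overlap no named row (19.6%) and for 222 of the 2000 that do (11.1%), beside the background of 12.7%, and at least 2-fold falls for 14.2% and 13.9%. By distance, these rises were called for 21.1% of loci within 5 kb, 19.3% at 5 to 50 kb and 12.0% beyond 50 kb. At least 2-fold falls were called for 13.2%, 13.8% and 22.0%. Over all positions, 146 of the 327 rises were in loci with a DMSO mean under 100. Likewise, 159 of the 355 falls were in loci with a BEZ235 mean under 100. Position classes were not compared without such loci. The difference between the position classes was not tested, and the median level was 243 normalized counts without overlap and 348 with it. Calls of any size were more alike. Inside a named row lay 1598 loci, of which 492 were higher and 564 lower (66.1% called). Of 366 that partly overlapped a named row, 124 were higher and 133 lower (70.2%), and of 36 that contained a whole one, 9 and 12 (58.3%). Without overlap, 304 lay within 5 kb of a named row (108 higher, 101 lower), 181 at 5 to 50 kb (58 and 60) and 50 beyond 50 kb (16 and 18). The median log2 fold change was -0.07 for the 2000 loci that overlap a named row and -0.03 for the 535 that do not.
The loci with the smallest adjusted p of their class changed far more than these medians. GSHG0049517, chr1:44767246-44775483, overlaps KIF2C, a kinesin that depolymerizes microtubules in mitosis, and fell by 2.26 where KIF2C fell by 2.31. GSHG0021789, which matches an antisense transcript and partly overlaps the glutamine transporter gene SLC1A5, fell by 1.55 where SLC1A5 fell by 1.74. Upward, GSHG0046493, chrX:48573094-48574891, partly overlaps RBM3, a cold-inducible RNA-binding protein, and rose by 2.02 beside 2.14 for RBM3. GSHG0041262 rose by 1.64 beside 1.71 for SLC4A2, an anion exchanger. Of their bases, 71.6% of GSHG0021789, 99.8% of GSHG0041262, 22.7% of GSHG0046493 and 6.34% of GSHG0049517 lie in the named row. With no strand given, reads of these loci and of the named rows cannot be told apart where they overlap. For none of the loci at KIF2C, SLC1A5, RBM3 and SLC4A2 did the difference from the named row, tested as described below, pass. GSHG0027281, chr20:32186486-32188854, lies within the GENCODE pseudogene TSPY26P, of which it covers 58.5%, and 291 bases from a separate named row of that symbol. It rose from 117, 125 and 125 to 893, 876 and 802 (2.80, adjusted p = 8.67e-09). Beyond 50 kb of any named row, GSHG0030120, the proteasome pseudogene PSMC1P1, rose from 9696, 9028 and 8953 to 18910, 18496 and 16180 (0.95), and GSHG0043378 fell from 2181, 2176 and 2132 to 962, 977 and 950 (-1.17). PSMC1P1 shares 97.7% of its 30-base words with PSMC1, whose row rose by 0.90, so GSHG0030120 may hold reads of PSMC1.

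Loci ranged from 20 to 930332 bases in length. The share called was 62.2% in the 402 loci of up to 50 bases, 63.6% in the 55 of 51 to 200 bases, 66.9% in the 248 up to 1000 bases, 69.0% in the 533 up to 2000, 67.8% in the 943 up to 5000, 67.7% in the 232 up to 20000 and 65.6% in the 122 above. Direction differed between the shorter classes: 141 higher and 109 lower up to 50 bases, and 13 higher and 22 lower from 51 to 200 bases, where 18 of the 55 lie in or nearest to GOLGA2P11, whose loci form a chain described below. The longest locus, GSHG0012001 at chr14:21621824-22552155, spans the T cell receptor alpha gene region and fell by 0.30 (7509, 7626 and 7759 with BEZ235 against 8348, 10675 and 9398 with DMSO). The shortest locus, of 20 bases in MFSD12, was at -0.10, and 2 loci of 22 bases lay within the microRNA genes MIR4721 and MIR4750, in TUFM and TBC1D17, where reads of the microRNA and of its host cannot be told apart. They had log2 fold changes of 0.30 and -0.48 with adjusted p of 0.0537 and 0.0522, and did not pass the test, though each did under several alternatives, 4 for the first and 5 for the second.
By chromosome, lower calls outnumbered higher ones most on chromosome 1 (60 higher, 111 lower of 245), chromosome 15 (24 and 55 of 121), chromosome 9 (30 and 67 of 137) and chromosome 13 (9 and 26 of 54), with medians of -0.20, -0.40, -0.37 and -0.31. Named rows with a mean of at least 100 on these chromosomes had medians of -0.02, -0.09, -0.01 and 0.07. Lower calls took 45.3%, 45.5%, 48.9% and 48.1% of the loci there and 40.1%, 43.7%, 38.5% and 35.6% of those named rows. Higher calls took 24.5%, 19.8%, 21.9% and 16.7% of the loci and 37.5%, 34.4%, 39.0% and 40.8% of the named rows. The loci of chromosome 15 include the chain of 23 in and beside GOLGA2P11, 9 of them lower. On chromosome 21, 18 of 41 loci were higher and 9 lower, on X 25 and 14 of 64, and on chromosome 19 55 and 36 of 137. Higher calls were thus 43.9%, 39.1% and 40.1% of the loci, near the 41.6%, 39.1% and 42.4% of named rows there. Lower calls were 22.0%, 21.9% and 26.3% of the loci and 37.3%, 39.4% and 32.4% of named rows. Neighbouring loci share genes and reads, and the differences between chromosomes were not tested.

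Loci were classed by the GENCODE v29 genes across their span, a match being an overlap of at least 50% of the bases covered by either. Those that touch an intron of a gene and none of its exons leaned downward: of 390, 88 were higher and 171 lower, with a median of -0.42. This lean moved with single libraries. The median deviation from the mean of the 6 libraries was 0.33, 0.03 and 0.21 in the DMSO libraries and -0.27, -0.32 and 0.08 in the BEZ235 libraries, so BEZ235 replicate 3 stood above DMSO replicate 2. Without BEZ235 replicate 3 the counts were 74 higher and 197 lower, and without BEZ235 replicate 2 they were 87 and 141. The median SD between replicates was 0.31 and 0.26 on the log2 scale for these loci in the BEZ235 and DMSO groups, against 0.14 and 0.16 over all the loci. The part of unspliced RNA or of residual DNA in these reads was not tested. Leaving out loci that lie with at least 2 others within 10 kb left 328, 63 higher and 150 lower.
Examples are GSHG0040139, chr7:157233867-157236134 in an intron of UBE3C, which was at 773, 472 and 684 with DMSO and 31.3, 27.6 and 44.4 with BEZ235, and GSHG0033676, chr4:101343870-101346021 in an intron of PPP3CA, at 463, 217 and 310 against 27.8, 11.9 and 21.8. The UBE3C row changed by 0.12 without passing the test, and the PPP3CA row rose by 0.33. Not every locus in an intron behaved in this way: the highest, GSHG0029452 in RBFOX2, overlaps RPL41P3, a ribosomal protein pseudogene in RefSeq, in part, and rose from 41224, 36747 and 36439 to 80354, 65203 and 57050 (0.81, adjusted p = 4.44e-05).
The other large classes were more even. Loci that are mostly exon of a longer gene numbered 785 (274 higher, 249 lower, median 0.04), those partly exon 646 (198 and 234, -0.07), long noncoding RNA matches 337 (116 and 122, -0.05), pseudogene matches 81 (29 and 24, 0.09), protein-coding matches 58 (22 and 15, 0.16), matches to transcripts that GENCODE lists as awaiting experimental proof (TEC) 92 (26 and 34, -0.12), loci with no GENCODE gene 140 (54 and 37, 0.12) and small RNA matches 6 (0 and 2). Among the long noncoding matches, 41 of 94 intergenic (lincRNA) loci were higher and 24 lower with a median of 0.21, and 62 of 187 antisense loci were higher and 75 lower with a median of -0.08. Of 17 loci of the type processed transcript, 1 was higher and 9 were lower (median -0.39), and of 22 sense intronic loci 6 were higher and 8 lower (-0.29). Named noncoding rows with a mean of at least 100 had 361 higher and 258 lower of 917. NEAT1, the RNA scaffold of paraspeckles, is in the table without a symbol as GSHG0006364, chr11:65422798-65445599. It was at 35328, 28411 and 30354 with DMSO and 14607, 12571 and 21346 with BEZ235, a log2 fold change of -0.99 ± 0.16 (SE, adjusted p = 2.13e-04).

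**Figure D2:**
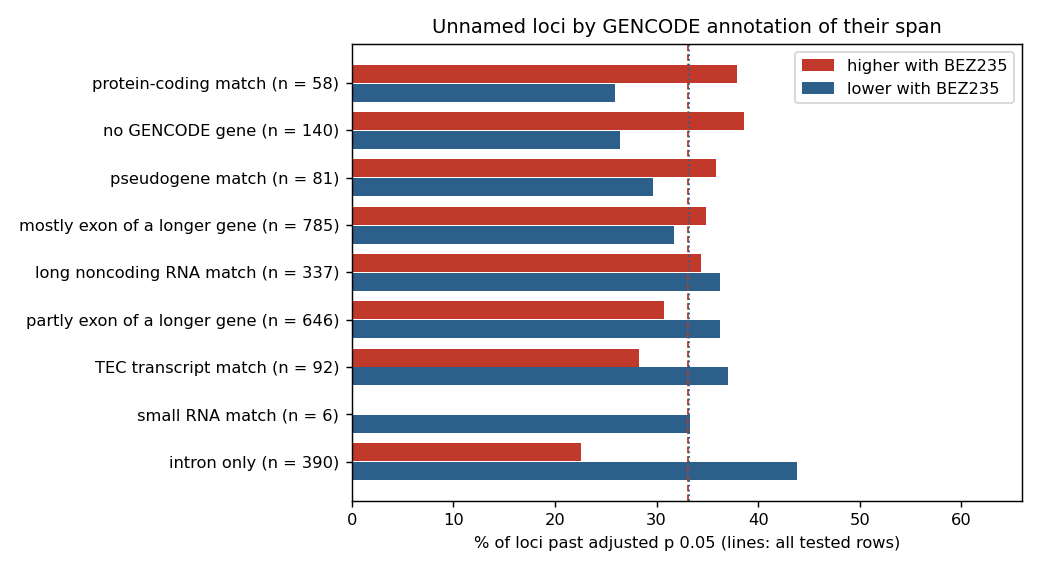
Share of unnamed loci past an adjusted p of 0.05 (x axis, %), higher (red) or lower (blue) with BEZ235, by GENCODE class of the span, ordered by median log2 fold change; the near-coincident dashed and dotted lines are the 33.1% higher and 33.2% lower of all tested rows. Intron-only loci have the longest blue bar, 171 of 390 lower, and the shortest red bar apart from the 6 small RNA matches.

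**Figure D3:**
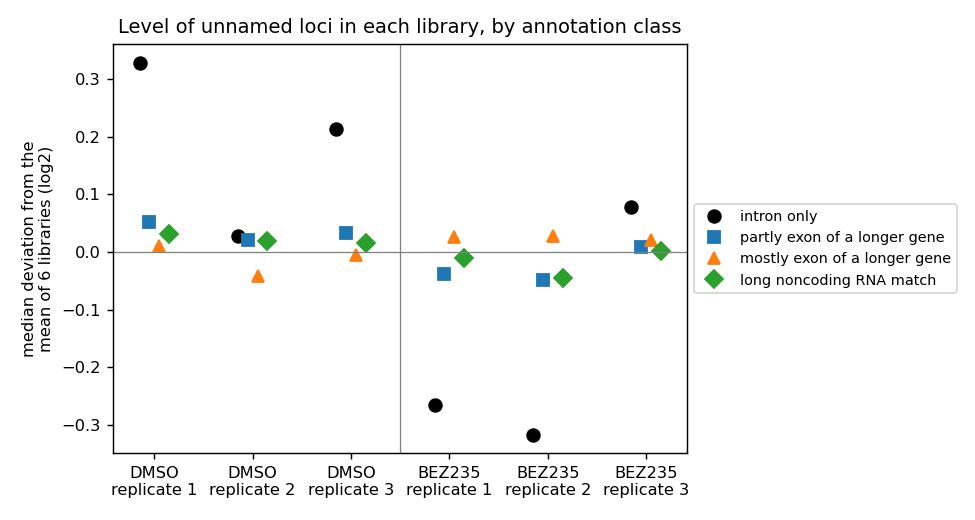
Median deviation of each class from the mean of the 6 libraries (y axis, log2), 1 point per class and library. Intron-only loci (black circles) range from -0.32 in BEZ235 replicate 2 to 0.33 in DMSO replicate 1, and BEZ235 replicate 3 lies at 0.08, above DMSO replicate 2 at 0.03.

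Whether an unnamed locus moved differently from the named row it overlaps was tested on the difference of the log2 values in each library. Of 1981 loci with a tested named row, 517 differed from it (26.1%, background over all such pairs 22.2%), 223 by rising more or falling less (background 9.27%) and 294 by falling more or rising less (12.9%). Within 0.5 of the named row's log2 fold change lay 1334 loci (67.3%), and 152 were called in the opposite direction (7.67%, background 6.86%). The counts leaned on single libraries: 146 and 164 differed upward and downward without DMSO replicate 3, and 181 and 193 downward without DMSO replicate 1 and without BEZ235 replicate 2. Intron-only loci had 30 upward and 92 downward differences in 319 pairs (38.2%), with a median difference of -0.51. Of these pairs, 55 were called in opposite directions (17.2%, background 6.86%). By the sign of the named row alone, 56 intron-only loci fell, by their own test, where it had a positive fold change. Likewise, 13 rose where it had a negative one. This looser count was not made over all pairs. The named rows of the intron-only loci had 137 higher and 115 lower calls over the 319 pairs. For loci that are mostly exon, 144 of 686 differed (21.0%) and the median absolute difference was 0.12. The correlation of the fold changes across loci was 0.45 for the 319 intron-only pairs and 0.67 for the 686 mostly exon pairs, given as a description, since each pair comes from the same libraries and may share reads.

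**Figure D4:**
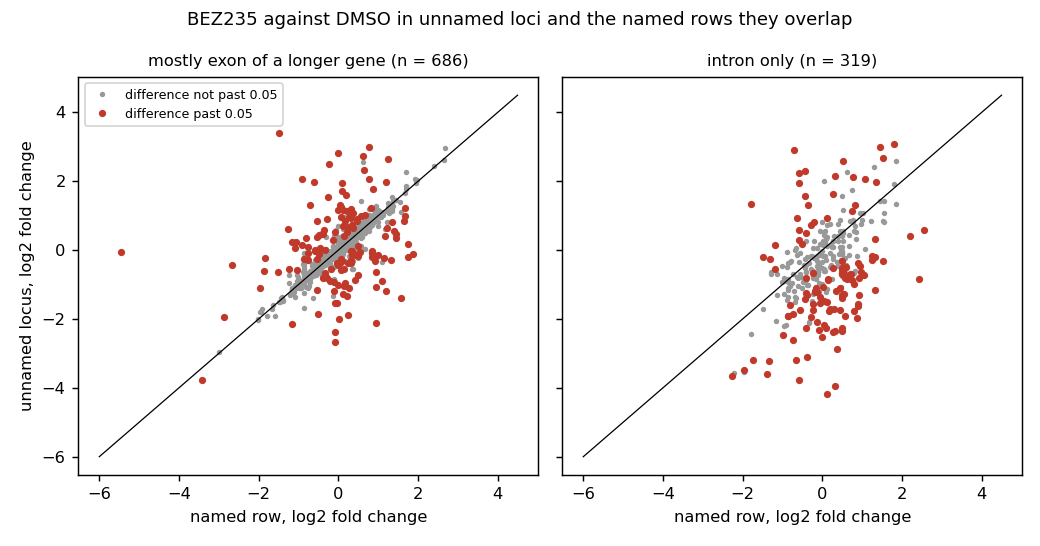
Log2 fold change of unnamed loci (y axis) against that of the named row they overlap (x axis), for loci that are mostly exon (left) and intron only (right); the line marks equal change and red points have a difference past an adjusted p of 0.05. Points on the left cluster on the line, with 144 of 686 red, and on the right 92 of 122 red points lie below it.

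The smallest adjusted p among the pairs was for GSHG0039707, chr7:97966632-97967163, which overlaps the olfactory receptor pseudogene OR7E38P inside the span of ASNS, the asparagine synthetase gene. ASNS fell from 144425 ± 1488 to 3292 ± 137 (SD, n = 3) (log2 fold change -5.46), whereas the locus was at 913, 1015 and 1012 with DMSO and 946, 980 and 878 with BEZ235 (-0.07). The difference was 5.39 ± 0.10 (SE, adjusted p = 3.99e-05). GSHG0010277, chr12:57457441-57460001, partly overlaps INHBE, an inhibin subunit gene. It fell by 2.11 (673, 724 and 744 to 220, 126 and 159), while INHBE fell by 7.13. GSHG0025654, chr2:101018542-101021158, lies inside TBC1D8 and overlaps RPL31, which encodes a ribosomal protein. It rose from 583, 522 and 582 to 1810, 1738 and 1777 (1.66), TBC1D8 fell by 1.39 and RPL31 rose by 0.52.
In the other direction, GSHG0001051 fell by 5.06 more than NUDT4B (adjusted p = 3.51e-04), whose row of 13988 ± 847 with BEZ235 and 17472 ± 1158 with DMSO (SD, n = 3) runs over chr1:146297876-148752387. GSHG0019923, chr17:37328839-37328986, is a 148-base stretch of ACACA exon sequence. ACACA encodes the acetyl-CoA carboxylase of fatty acid synthesis. The stretch fell from 697, 660 and 658 to 177, 160 and 169 while the ACACA row, at 0.03, did not pass the test. GSHG0018942 is UBE2SP1, chr17:15704086-15704924, inside ZNF286A. It fell from 7889, 9359 and 8081 to 1989, 2084 and 1799 (-2.11), ZNF286A was at -0.05, and UBE2S, the parent of the pseudogene and a ubiquitin-conjugating enzyme of mitosis, fell by 2.15.

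Pseudogenes followed their parents where the sequences are close. Processed pseudogene loci, which overlap the pseudogene by at least 50% both ways, numbered 49, with 21 higher and 12 lower. These loci and the sharing measure were chosen after values were seen. In 22 loci at least 50% of the 30-base words of the pseudogene also occur in a transcript of 1 gene with a row, taken as the parent. Of these, 13 were higher and 6 lower, 21 lay within 0.2 of the parent's log2 fold change, and the median absolute difference was 0.04. NUDT4P2 (GSHG0009311), among the 22, lies inside the row of NUDT4B, taken as its parent, so its comparison is with a row that spans it. With a lower share, the gene that shares most words need not be the parent, so only the 9 loci whose pseudogene is named after that gene were compared. Of these, 3 lay within 0.2 and the median absolute difference was 0.58. Fold changes of locus and parent had a Pearson correlation across loci of 0.998 (n = 22) and 0.41 (n = 9), a description only. A short read cannot be placed between copies it matches alike, and no source used here says how the authors treated such reads, so these rows may hold reads of the parent.
A higher level than the parent's row was found for 6 of the 22, the highest ratio being 21.5 for RPL9P9. GSHG0047589, chr15:82372212-82372914, is RPL9P9, and was at 448826, 353221 and 403104 with DMSO and 611817, 571188 and 628357 with BEZ235 (0.59 ± 0.09 SE, adjusted p = 1.90e-04), where RPL9, a protein of the large ribosomal subunit, had 19163 ± 2312 and 27573 ± 2957 (SD, n = 3) and rose by 0.53. Under quantile normalization the RPL9P9 rise was 0.13 with an adjusted p of 0.0652, and 17 of the 22 loci lay within 0.2 of the parent. RPL21P16, GSHG0049204 at chr10:120354654-120355227, shares every word with RPL21 and rose from 323270, 266396 and 294302 to 512290, 480989 and 486112 (0.75), and RPL21 rose by 0.72.
EEF1A1P5, GSHG0043919 at chr9:133019419-133021165, the highest pseudogene locus, was at 418612, 355176 and 406507 with DMSO and 815858, 784065 and 694189 with BEZ235 (0.96), and EEF1A1, the elongation factor that brings transfer RNA to the ribosome, also rose by 0.96. RPS28P7 and the RPL36A copy AC116533.1, both among the 8 highest loci, rose by 0.62 and 0.62, beside 0.57 and 0.53 for RPS28 and RPL36A.
Falls were followed as closely. TCEA1P2, GSHG0042378 at chr3:37275687-37276595 inside GOLGA4, fell from 27670, 32020 and 29166 to 7985, 7756 and 7132 (-1.96), and TCEA1, a transcription elongation factor, fell from 45475 ± 3248 to 11395 ± 728 (SD, n = 3). TMSB4XP6 fell by 2.80 (1796 ± 277 to 261 ± 62.0, SD, n = 3) and TMSB4X, the actin-binding thymosin beta 4, by 2.69. ST13P5 rose by 1.62 and ST13, a cofactor of heat shock protein 70, by 1.58. AC245452.2 was the 1 locus of the 22 beyond 0.2, at 0.05 beside -0.21 for MPPE1.
Of 12 ribosomal protein pseudogene loci, 10 were higher and 1 lower, and RPL12P1, at 0.53, did not pass the test (adjusted p = 0.220). The lower one, RPL13P5, shares 0.50% of its words with RPL13 and had -1.01 where RPL13 rose by 0.57. RPL39P5 shares 9.29% with RPL39 and rose by 1.21 where RPL39 rose by 0.62.

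**Figure D5:**
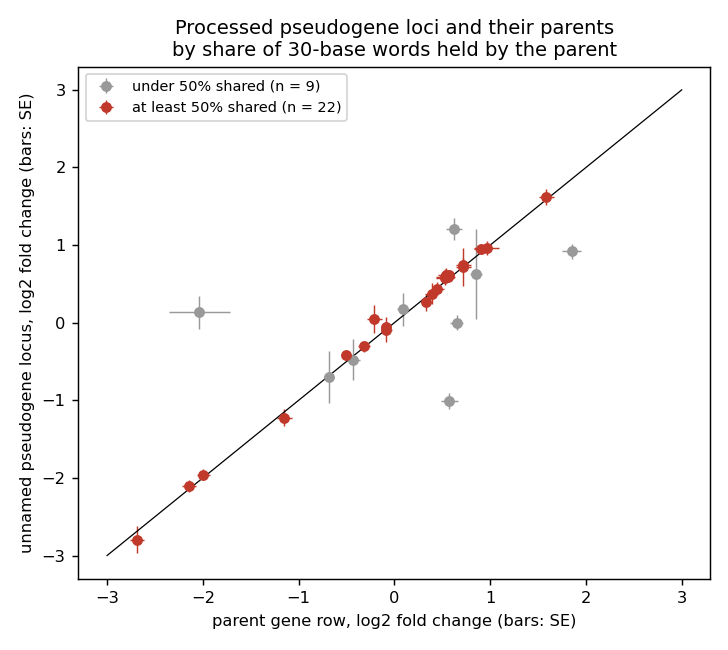
Log2 fold change of 22 and 9 processed pseudogene loci (y axis) against that of their parent gene (x axis), bars being standard errors; red points share at least 50% of their 30-base words with the parent and grey points share less but carry the gene's name. The 22 red points lie on or near the line of equal change from -2.80 to 1.62, and 3 of the 9 grey points lie within 0.2 of the parent.

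Most short loci in exons of protein-coding genes followed the gene they lie in. Of 402 loci of up to 50 bases, 382 were 24 to 32 bases long, 230 lay in an exon of a protein-coding gene and 69 in one of a pseudogene, and 77 lay wholly in coding sequence. For 223 the protein-coding host had a row of its own: 205 had the same sign of change, 196 lay within 0.5, the median absolute difference was 0.09 and the correlation across loci was 0.83 (description only). Each of these loci lies in an exon of its host, so both rows may count the same reads and the likeness is not independent. GSHG0043304, 27 bases of YBX1, a cold-shock RNA-binding protein, was at 47070, 48312 and 48916 with DMSO and 50387, 49021 and 44420 with BEZ235, and neither it (-0.01) nor YBX1 (-0.02) passed the test. The ferritin heavy chain sequence GSHG0049213 fell by 1.38 (40467 ± 4378 to 15607 ± 2144, SD, n = 3), beside a fall of 1.36 for FTH1, the iron-storing ferritin subunit. GSHG0049140, which also occurs in RPS18, rose by 0.81 beside 0.78 for RPS18. GSHG0045581, the RPL9 sequence, rose from 64012, 51274 and 57666 to 90454, 79911 and 93251 (0.61).

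The locus with the highest level of all, GSHG0045428 at chr21:8445005-8445875, lies in a ribosomal RNA array. Its values, 1950640, 1269540 and 1305270 with DMSO and 1498250, 1364350 and 1086340 with BEZ235, overlapped between the groups (-0.18, adjusted p = 0.373). GSHG0050249, chr21:8987859-8988532 beside MIR10396A, stood at 99203 in DMSO replicate 1 and at 15543 to 17745 in the other 5 libraries. Its log2 fold change was -0.96 (adjusted p = 0.126), and -0.12 without DMSO replicate 1 (0.0913). Without DMSO replicate 2 or DMSO replicate 3 it was -1.36 and -1.41 and passed the test (0.0254 and 0.0331), as it did with edgeR (adjusted p = 0.0372). The snoRNA SNORD36A, which guides ribosomal RNA methylation, is GSHG0049212 inside RPL7A and fell by 0.43 where RPL7A rose by 0.91. It is among 3 neighbouring loci of 32 to 72 bases there, with log2 fold changes of -0.50 to -0.31, of which 1 was called lower. Reads of the snoRNA and of unspliced RNA of its host cannot be told apart.

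Loci often lay in rows of neighbours. Joined where they lie within 10 kb, they formed 2111 chains, of which 1866 were single loci and 65 held 3 or more (309 loci). The chain with the most loci, 23 at chr15:62242222-62261415, lay in and beside the pseudogene GOLGA2P11, and 9 were lower and 0 higher, with a median of -0.82 beside -0.85 for the named row. A chain of 19 at chr6:158609376-158621623 inside TMEM181 and across the pseudogene TATDN2P2 had 5 lower and 0 higher and a median of -0.18, while TMEM181 rose by 0.50. In these chains the count of lower loci ran from 5 to 15 and from 2 to 8 when 1 library was left out. A chain of 15, of 29 to 54 bases each, at chr12:120720409-120723502 in UNC119B, which encodes a lipid-binding trafficking protein of cilia, was higher in 15 of 15, with log2 fold changes of 0.37 to 0.54 beside 0.45 for UNC119B, and in 14 or 15 of them when 1 library was left out. Loci of a chain lie close together and can share a transcript, so they are not independent measurements.

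Just inside the level limit lay GSHG0038101, GSHG0045398 and GSHG0033197 with means of 100.1, 100.3 and 100.4 and log2 fold changes of -0.78, 1.94 and -2.46. Just outside lay GSHG0018846, GSHG0041419 and GSHG0034618 with means of 99.4, 99.2 and 99.2 and log2 fold changes of 0.48, 0.31 and 1.63.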

How the data were processed

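RNA of TC-71 cells was sequenced in 3 BEZ235 and 3 DMSO libraries. The authors deposited 1 table of normalized read counts, a signal scaled by size factors; STAR 2.4.0, DESeq, SAMtools, Picard, FastQC and the build hg38 are listed, with no roles, per the submitters' processing notes. RNA selection, strand, the counting rule and handling of reads with several matches are stated in none of the sources used. Columns named as controls were matched to DMSO samples by number. No column of another sample was used or found (0).

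Each column held whole multiples of 1 step, so reads were recovered for 100.0% of values (tolerance 0.01 normalized counts), and a count of 0 allows up to 3 reads, which were 2.50 to 3.47 normalized counts. Counting intervals (95%, exact binomial) cover counting error only. Rows with at least 10 in at least 3 of 6 libraries were tested with limma 3.58.1 (R 4.3.3, mean-variance trend, group only, two-sided, Benjamini-Hochberg over all rows tested, threshold 0.05) on log2(normalized count + 1), which understates changes of low rows. Overlap pairs, 4036 in all, were tested by limma on the difference of log2 values with the named row of longest overlap. An exact permutation test of 3 libraries against 3 cannot go below 0.1 and was not used. Of named rows, 23748 matched a GENCODE v29 symbol and 99.9% of these overlapped it, so GENCODE and RefSeq (GRCh38) positions were used. Sharing with a parent was counted in 30-base words of GENCODE transcripts on the same strand.

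Members, lists and tests were chosen with earlier results of these data known. Loci named by rule are the 8 largest rises and falls with groups apart, the 8 highest, the 3 longest and shortest, the smallest adjusted p by position class and for pair differences, those nearest the limit of 100, the 2 highest per annotation class and the 3 largest chains; some of these are not reported here. The pseudogene and short loci beyond these, AC245452.2, ST13P5, TMSB4XP6, RPL13P5 and RPL39P5 among them, were chosen after their values were seen. Alternatives were TMM, quantile and total-count scaling, other pseudocounts (0.5, 10), the low-value filter dropped or set to 50, no trend, edgeR 4.0.16 and DESeq2 1.42.0 on the recovered reads, a replicate block, leaving out each library, means of 50 and 200, and other partner rules. Scripts were tested on simulated data. A search for GGAA repeats needs a genome sequence and was not made.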

Additional observations from a re-analysis of the deposited data

How the results depend on the processing

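Called loci numbered 1691 with edgeR and 1673 with DESeq2 on the recovered reads against 1695 in the limma test, and 1678 and 1659 of them were called in the same direction. TMM, quantile and total-count scaling, both pseudocounts, both filters, no trend and leaving out each library kept the counts of higher and lower loci, of 2-fold changes, of intron-only loci and of pseudogenes near their parent within 1.5 times of those reported. With a mean of at least 200 in place of 100, 193 loci were at least 2-fold higher and 214 lower, since fewer loci enter. Without loci that overlap a named row, 182 were higher and 179 lower, 105 and 76 of them at least 2-fold, for the same reason. For the difference from the named row, leaving out 1 library gave 146 to 178 upward and 164 to 304 downward calls. The cause was not tested.

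The correlations of same-numbered deviations from the group means were -0.04, 0.02 and 0.04, and those of unlike numbers ran from -0.10 to 0.07. Whether the numbers mark pairs or a shared batch cannot be decided from these values. With the number as a replicate block, 1733 loci were called, and 139 loci differed from the named row upward and 194 downward. GSHG0050249 passed the test with the block (adjusted p = 0.0310). Over the loci named by rule, 2077 values under the alternatives kept their direction and side of the threshold, 51 lost the call, 56 gained one and none reversed a called direction. Quantile normalization and total-count scaling moved the median log2 fold change of the loci to -0.02 and -0.16. Reads that match several copies, overlapping rows and the missing strand limit which RNA a value can be given to.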
